A study of Mus musculus with 6 samples.

Results

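SR proteins (serine/arginine-rich splicing factors) and hnRNPs (heterogeneous nuclear ribonucleoproteins) are the 2 large families of RNA-binding proteins that steer the major spliceosome. The genes were taken by symbol, as every Srsf symbol followed only by digits and every symbol beginning with Hnrnp. This gave 33 of the 55353 genes in the files, 11 of them Srsf and 22 Hnrnp, with 284 of 142647 annotated isoforms. The libraries came from whole testes of mice at postnatal day 14, 3 from controls and 3 from animals with a conditional knockout of Rnu11 (Rnu11-cKO, here called mutants), and each library was taken as 1 animal. Rnu11 encodes U11, the small nuclear RNA that recognises the start of minor-type introns. The sources used here do not give the Cre driver, the deleted cells, the strain or the control alleles. The comparison asks how the factors of major splicing, and the splicing of their own transcripts, stood after loss of a minor spliceosome RNA.

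SR proteins bind exonic enhancers and recruit U1 and U2AF to nearby splice sites, whereas many hnRNPs coat intronic or exonic silencers and keep sites from being used. Both families hold down their own level: the protein promotes a poison exon or a retained intron in its own pre-mRNA, and the resulting isoform is degraded by nonsense-mediated decay (NMD) or kept in the nucleus. The minor spliceosome removes a rare class of introns with a long, conserved start, bound by U11, and a conserved branch site, bound by U12. Srsf10 is known to carry such an intron, at which the minor-type start competes with a major-type start just downstream.

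A pair of members carried an exact minor-type intron start in the annotation, and their sequences are shown because the isoform results turn on them. A donor, the first base of an intron, could be read where another annotated transcript runs through it, which held for 107 of the 330 donors of the members. G or A followed by TATCCTT, read on the transcript strand, was taken as the minor-type start, and it was found at 158 of 32744 donors read in protein-coding genes (0.483%). Among the members it stood at 1 donor of Srsf10 and 1 of Hnrnpl, both directly after a coding exon. The other donors of the members were not read, so no count of minor-type introns in the family follows from this. All stretches are given on the plus strand of GRCm38, as read from GENCODE M21 transcripts.
Srsf10 donors, chr4:135858390-135858489: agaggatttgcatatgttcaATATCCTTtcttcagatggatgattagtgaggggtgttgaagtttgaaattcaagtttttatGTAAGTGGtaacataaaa
Hnrnpl donor, chr7:28814268-28814307: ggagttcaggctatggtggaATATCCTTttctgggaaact
Hnrnpl intron end, chr7:28815059-28815108: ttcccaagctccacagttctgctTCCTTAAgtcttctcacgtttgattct
Hnrnpl cassette exon, chr7:28817335-28817404: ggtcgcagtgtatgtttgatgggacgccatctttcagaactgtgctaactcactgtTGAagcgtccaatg

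In the Srsf10 stretch the first capitals mark the minor-type start, directly after the second exon, and the second capitals mark the major-type start GTAAGTGG, 62 nt farther down. In the Hnrnpl donor the capitals mark the same 8 bases, ATATCCTT. The Hnrnpl intron is 811 nt long and ends in AC, as 64 of 26693 intron ends read did (0.24%). Its capitals mark TCCTTAA, with 10 nt between its last A and the end of the intron. An exact TCCTTAA or TCCTTGA lay in the last 40 nt of 237 of those 26693 intron ends (0.888%), searched on the transcript strand. The last stretch is a 70-nt cassette exon of Hnrnpl whose capitals mark the stop codon at which the reading frame of the NMD isoform Hnrnpl-213 ends.

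The 6 libraries showed the labelled difference in U11 and also differed in cell-type markers. Rnu11 stood at 614, 576 and 550 TPM (transcript abundance per length, scaled to 1 fixed total per library) in controls and at 196, 393 and 203 TPM in mutants, with no overlap (log2 difference -1.21 ± 0.26 SE, limma adjusted p = 0.294). Of 22 meiotic prophase spermatocyte markers 21 were lower in mutants, 13 without overlap, with summed levels of 630.4 to 792 TPM in controls and 458 to 589.7 TPM in mutants. All 8 tested of 12 pachytene markers were lower (128 to 253 TPM against 121 to 146 TPM), control 2 being the low control. Of 20 Sertoli cell markers 18 were higher, 11 without overlap (2021 to 2325 TPM against 2759 to 3529 TPM), and all 13 Leydig cell markers were higher (215 to 356 TPM against 358 to 540.4 TPM). Of 12 tested spermatogonial markers 5 were higher and 7 lower (161 to 176 TPM against 161 to 163 TPM); Dmrt1 stands in this list and the Sertoli list. All 6 macrophage markers were higher, as were 4 of 6 peritubular myoid markers, the latter near the share of all genes. Of all 17959 genes tested, 66.4% were higher, 14.5% higher without overlap and 5.77% lower without overlap. All these counts are for the TPM as deposited. No marker was at 0 in any library, and the markers under a mean of 1 TPM were Aurkc, Ccna1, Pgk2 and Spag6 of the pachytene list and Nanos2 of the spermatogonial list. The part of these shifts in the results below was not tested. In whole tissue, fewer cells of a type and less RNA per cell cannot be told apart. Between 30113 and 34510 genes per library were above 0, and the sequencing depth of the libraries is unknown, because TPM does not carry it.

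At the gene level the SR proteins and hnRNPs differed little between mutants and controls. No member was called at an adjusted p of 0.05 by limma on log2(TPM + 1). As deposited, 1 of the 30 tested had an unadjusted p under 0.05, against 16.1% of all 17959 genes tested. Over all genes 5 were called, or 0.0278%. The 30 members lay between -0.32 and 0.25 on the log2 scale. None differed by more than 0.5, a size reached by 8.44% of all genes and by 7.53% of genes of at least 5 TPM. Their median absolute difference was 0.07, and that of all genes was 0.17. These sizes are for TPM as deposited, where the median of all genes was itself 0.09. After median-ratio and protein-coding scaling Hnrnph3, the lowest member, stood at -0.43 and -0.46. The matching sizes of all genes after rescaling are not given here. In simulated tables of the 17959 genes, 67.5% of those given a change of 1 log2 unit were called, and the members' differences were all smaller than that. The simulated noise was independent for each gene and library, without shifts shared by a library, so this share may not hold for the real libraries. There Rnu11, at -1.21, was not called (limma adjusted p = 0.294).

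The direction of these small differences depended on how the libraries were scaled. As deposited, 20 of 30 members were higher in mutants and 10 lower, with a median of 0.02 against 0.09 for all genes. After median-ratio scaling, which moved the median of all genes by -0.10, 7 were higher and 23 lower. After rescaling to nuclear protein-coding genes, which moved it by -0.12, 5 were higher and 25 lower. Relative to the median of all genes, the members' median stood at -0.07 as deposited and at -0.09 with either rescaling. Single libraries also moved the split: without mutant 2 it was 12 higher and 18 lower, and without mutant 3 it was 25 higher and 5 lower. As deposited, the libraries of the groups did not overlap for 2 higher members (background 14.5% of genes) and 2 lower members (background 5.77%). After median-ratio scaling this held for 1 higher member, Srsf10 (background 11%), and for 10 lower members (background 11.3%), which were Srsf1, Srsf2, Srsf3, Srsf9, Srsf11, Hnrnpc, Hnrnpd, Hnrnph3, Hnrnpll and Hnrnpm. Protein-coding scaling gave the same count of 1 higher (background 9.48%) and 10 lower members (background 13%). With either rescaling 4 members had an unadjusted p under 0.05 by limma, Hnrnph3, Hnrnpll, Srsf1 and Srsf9, and none was called. The matching share of all genes is not given here, so the contrast with 16.1% holds only as deposited. The protein-coding share of TPM itself ran from 25.3% to 27.4% in controls and from 26.6% to 31% in mutants.

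**Figure D1:**
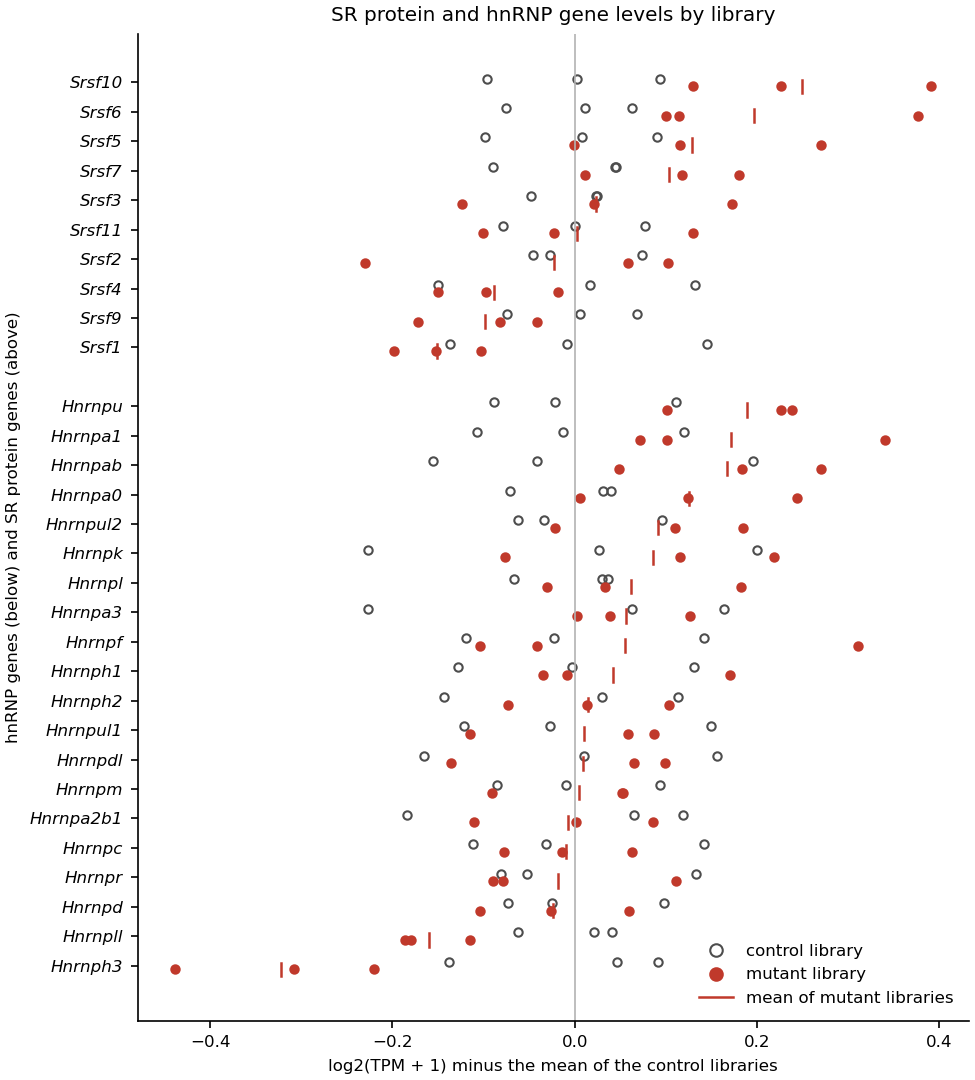
Levels of the 30 tested genes, with log2(TPM + 1) minus the mean of the controls on the horizontal axis and genes on the vertical axis. Open circles are control libraries, filled circles mutant libraries and ticks the mutant means; most rows overlap, while Srsf10 and Srsf6 lie to the right of their controls and Hnrnph3 and Hnrnpll to the left.

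Srsf2, Srsf11 and Srsf1 were the most abundant SR protein genes. Srsf2, whose protein binds exonic enhancers and has served as the marker of nuclear speckles, stood at 218, 237 and 221 TPM in controls and 241, 234 and 191 TPM in mutants. Srsf11 stood at 133, 141 and 149 TPM in controls and 139, 154 and 131 TPM in mutants. Both genes overlapped between the groups, with log2 differences of -0.02 and 0.00. Srsf1, the founding member of the family, stood at 135, 121 and 111 TPM in controls and 109.8, 114 and 106 TPM in mutants, a log2 difference of -0.15 ± 0.10 SE (limma adjusted p = 0.453). It was -0.26 and -0.29 after the 2 rescalings, which set its groups apart, and -0.079 without control 1.

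Among SR protein genes, Srsf10 and Srsf6 were higher in every mutant than in any control. Srsf10, which encodes a splicing repressor when dephosphorylated, stood at 92.8, 98.9 and 86.6 TPM in controls and 108.5, 122 and 101 TPM in mutants (log2 difference 0.25 ± 0.11 SE, adjusted p = 0.31). Its 95% interval ran from 0.00 to 0.50. Srsf6, named here after its values were seen, stood at 51.0, 49.2 and 46.3 TPM in controls and 52.9, 63.7 and 52.4 TPM in mutants (0.20 ± 0.11, adjusted p = 0.367), and its groups overlapped after either rescaling (0.084 and 0.059). Srsf10 kept its groups apart after both (0.14 and 0.11). The remaining tested SR genes, Srsf3, Srsf4, Srsf5, Srsf7 and Srsf9, lay between -0.10 and 0.13 as deposited, with overlapping groups. Srsf9 stood at -0.21 and -0.23 after the 2 rescalings, which set the groups of Srsf3 and Srsf9 apart. Srsf12, related in sequence to Srsf10, was under the filter of 1 TPM. It stood at 0.69, 0.46 and 0.70 TPM in controls and 0.31, 0.40 and 0.38 TPM in mutants.

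Among hnRNP genes the 3 most abundant were Hnrnpk, Hnrnpa2b1 and Hnrnpu. Hnrnpk, whose protein binds C-rich RNA through KH domains, stood at 488, 657 and 582 TPM in controls and 619, 665 and 542 TPM in mutants. Hnrnpa2b1 stood at 310.3, 322 and 261 TPM in controls and 315, 297 and 275 TPM in mutants. Hnrnpu, whose protein is the scaffold attachment factor of chromatin, stood at 206, 237 and 216 TPM in controls and 256, 259 and 235 TPM in mutants. All 3 overlapped between the groups, with log2 differences of 0.09, -0.01 and 0.19. After median-ratio and protein-coding scaling, Hnrnpk turned to -0.029 and -0.055, Hnrnpa2b1 stood at -0.12 and -0.15, and Hnrnpu at 0.075 and 0.049.

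Hnrnph3 and Hnrnpll were the hnRNP genes that were lower in every mutant. Hnrnph3, a member of the group that binds runs of G, stood at 63.2, 53.8 and 61.3 TPM in controls and 50.8, 43.5 and 47.7 TPM in mutants (log2 difference -0.32 ± 0.10 SE, 95% interval -0.57 to -0.08, adjusted p = 0.294). The other genes of that group, Hnrnph1, Hnrnph2 and Hnrnpf, lay between 0.01 and 0.06, but the difference between Hnrnph3 and these genes was not tested. Hnrnpll, the paralog of Hnrnpl and named after its values were seen, stood at 34.2, 34.7 and 32.3 TPM in controls and 29.5, 31.1 and 29.7 TPM in mutants (-0.16 ± 0.08 SE, adjusted p = 0.344; -0.27 and -0.30 after the 2 rescalings). The other 15 tested hnRNP genes lay between -0.02 and 0.17 with overlapping groups as deposited. The pseudogenes Hnrnpa1l2-ps and Hnrnpa1l2-ps2 were under 1 TPM, and reads of such copies can be exchanged with Hnrnpa1.

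Isoforms were examined next, because these families are controlled through poison exons and retained introns. The annotation gives the members 135 protein-coding isoforms, 35 NMD isoforms, 75 retained-intron isoforms, 37 other noncoding transcripts and 2 pseudogene transcripts, of which 10 were listed at 0 in every library. Of 221 isoforms tested none was called (6 of 44197 over all genes, 0.0136%), and 18 had an unadjusted p under 0.05, a share of the members below the background of 11.2%. In 16 the mutants were all higher (background 11.6%) and in 12 all lower (background 5.17%). Isoform TPM values are estimates that divide shared reads among overlapping models, so short fragments and long isoforms of 1 gene are not independent.

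The 2 smallest p-values both belonged to Hnrnpl, whose protein binds CA repeats and also acts in trans on Hnrnpll. Hnrnpl-201, a full-length protein-coding isoform, stood at 7.62, 6.38 and 5.41 TPM in controls and 2.06, 2.49 and 1.98 TPM in mutants (log2 difference -1.23 ± 0.15 SE, adjusted p = 0.134). Hnrnpl-212, a retained-intron isoform, stood at 1.07, 2.08 and 2.16 TPM in controls and 7.95, 8.53 and 4.78 TPM in mutants (1.54 ± 0.25 SE, adjusted p = 0.27). Hnrnpl-206 ends in the same retained intron as Hnrnpl-212 and differs from it in the first exon. It went the other way, with 17.8, 15.7 and 16.2 TPM in controls and 12.5, 13.1 and 11.5 TPM in mutants (-0.39 ± 0.11, adjusted p = 0.433).

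Sums over these models differed less than the single isoforms did. Hnrnpl-206 and Hnrnpl-212 together gave 18.9, 17.7 and 18.4 TPM in controls and 20.4, 21.6 and 16.3 TPM in mutants, which overlap. The 3 isoforms from the downstream first exon, Hnrnpl-201, Hnrnpl-209 and Hnrnpl-212, summed to 31.1, 26.9 and 30.9 TPM in controls and 29.3, 31.1 and 23.2 TPM in mutants, which also overlap. Hnrnpl as a gene overlapped as well (162 ± 6.41 TPM SD in controls and 169 ± 13.1 TPM in mutants, n = 3 each, log2 difference 0.06). The isoforms from the upstream first exon, Hnrnpl-202 and Hnrnpl-206, also overlapped in sum as deposited. After median-ratio scaling their sum was lower in every mutant (48.0 to 53.5 TPM in controls against 42.1 to 45.1 TPM). Protein-coding scaling also set it apart (48.2 to 54.5 TPM against 41.5 to 45.0 TPM).

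Other isoforms with the smallest p-values came from 5 further genes. Hnrnpa3-202, protein coding, stood at 3.80, 2.13 and 1.17 TPM in controls and 0.135, 0 and 0.625 TPM in mutants (log2 difference -1.38 ± 0.33, adjusted p = 0.433). Hnrnpk-205, protein coding, lay below every control in the mutants (7.72, 5.87 and 8.18 TPM against 5.47, 4.06 and 4.24 TPM), a log2 difference of -0.56 that was not called. Srsf2-205, a noncoding transcript, stood at 1.62, 4.71 and 3.16 TPM in controls and 5.40, 8.83 and 7.38 TPM in mutants (log2 difference 1.03 ± 0.30). Hnrnpu-207, a retained-intron fragment, stood at 2.11, 2.31 and 2.15 TPM in controls and 3.03, 2.95 and 2.88 TPM in mutants. Srsf10-207 is described with its gene below. In each of these isoforms the groups did not overlap, and none passed the adjusted threshold.

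Shares of an isoform within its gene gave a similar picture. None of 149 shares was called (4 of 35634 over all genes, 0.0112%), 6 had an unadjusted p under 0.05 (background 5.78%), and the groups did not overlap in 8 higher (background 5.73%) and 6 lower shares (background 6.04%). Hnrnpa3-202 made up 16.9%, 10.2% and 6.89% of its gene in controls and 0.672%, 0% and 3.04% in mutants. The share of Hnrnpa3-203 was 54.9%, 62.6% and 60.0% in controls and 69.3%, 78.4% and 65.2% in mutants. Hnrnph2-202 made up 21.3%, 27.5% and 21.4% of its gene in controls and 34.3%, 44.1% and 29.8% in mutants. The share of Hnrnpa2b1-204 overlapped between groups (18.2%, 14.8% and 9.93% against 9.98%, 3.60% and 5.41%). Adjusted p-values of the 6 shares were 0.797 to 0.857, including those of Hnrnpl-206 and Srsf4-202.

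Members carried more annotated nonproductive RNA than most genes, in both groups. The nonproductive share is the summed TPM of NMD and retained-intron isoforms as a percentage of that sum plus the TPM of protein-coding isoforms. The median control share over the 24 members tested was 46.7%, and over the 6491 genes tested it was 26.4%. In 18 of the 24 members it lay above the median of all genes. It ran from 4.1% in Srsf9 to 77.4% in Srsf11, the highest, and above 60% of the summed TPM were also Hnrnpu, Srsf5, Srsf3 and Hnrnph3. Many of these isoforms are short fragments, to which TPM, being per length, gives more weight than the same reads would have in a full-length isoform. The mutant median was 48.2% for the members and 26.2% for all genes.

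The nonproductive share of the members did not move in 1 direction in mutants. It was higher in 11 and lower in 13 of 24, with a median log2 ratio difference of -0.00 against -0.03 for all genes. With retained-intron isoforms alone 11 of 22 members were higher and 11 lower (43.3% of all genes higher). With NMD isoforms alone 9 of 19 were higher and 10 lower (48.7% of all genes higher). None was called, nor was any of the 6491 genes (0%). By limma 2 members had an unadjusted p under 0.05, a rate close to the 6.72% of all genes. The groups did not overlap in 3 higher members (background 4.84%) and 2 lower members (background 7.5%).

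Srsf4 and Hnrnpd had the smallest p-values and went opposite ways. Srsf4, an SR protein whose pre-mRNA is known to hold a poison exon, had a nonproductive share of 41.5%, 43.6% and 43.9% in controls and 37.2%, 35.2% and 36.4% in mutants (log2 difference -0.40 ± 0.13 SE, adjusted p = 0.714). Its main protein-coding isoform Srsf4-202 made up the rest, 58.5%, 56.4% and 56.1% in controls and 62.8%, 64.8% and 63.6% in mutants. This is the same measurement and not a separate observation. Hnrnpd, whose protein binds AU-rich elements, had a share of 27.4%, 32.3% and 22.4% in controls and 34.7%, 36.7% and 37.0% in mutants (0.60 ± 0.21 SE, adjusted p = 0.714). In Hnrnpl the share was 41.9%, 40.2% and 37.3% in controls and 45.4%, 46.2% and 44.4% in mutants (0.33 ± 0.14, adjusted p = 0.743). Hnrnpa2b1 was the other higher member without overlap, and Srsf6 the other lower one. With retained-intron isoforms alone, Hnrnpd, Hnrnpl, Hnrnpa2b1 and Srsf2 were higher without overlap and Srsf4 lower. Srsf2 then stood at 31.2%, 32.0% and 30.0% in controls and 34.1%, 36.2% and 34.4% in mutants. With NMD isoforms alone only Srsf4 was apart, and lower, and Hnrnpd overlapped. The matching shares of all genes are not given here.

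**Figure D2:**
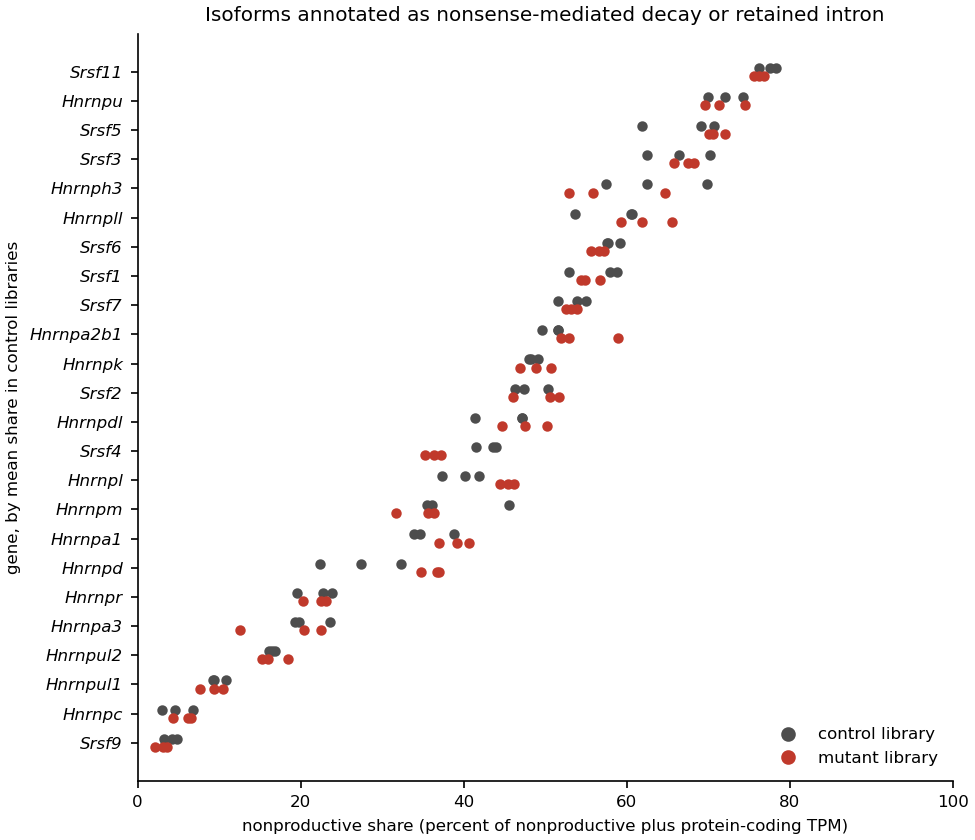
Nonproductive share of 24 members in each library, in percent on the horizontal axis, with genes ordered by their control mean on the vertical axis. Dark points are controls and red points mutants; members span 4.1% to 77.4%, and within a gene most libraries of both groups lie close together, with Srsf4 to the left and Hnrnpd and Hnrnpl to the right of their controls in mutants.

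Srsf10 was examined isoform by isoform at its minor-type donor, chr4:135858410. The gene (ENSMUSG00000028676.17, chr4:135855747-135869908, plus strand) has 10 annotated isoforms, all tested. The 4 protein-coding ones, Srsf10-202 to Srsf10-205, splice from the minor-type donor over an intron of 3364 nt. In Srsf10-201, Srsf10-207 and Srsf10-210 the exon runs past that donor: the first 2 splice from the major-type donor 62 nt downstream into an extra exon, and the last runs on unspliced. These 3 are annotated as noncoding transcripts, not as NMD or retained-intron isoforms, so Srsf10 was not among the 24 genes tested for nonproductive share.

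Isoforms running past the minor-type donor were higher in every mutant, while those spliced at it overlapped. Summed, the 3 that run past it stood at 33.9, 33.0 and 31.7 TPM in controls and 40.6, 47.3 and 41.3 TPM in mutants. The 4 protein-coding isoforms summed to 44.8, 44.5 and 41.9 TPM in controls and 46.3, 52.2 and 42.8 TPM in mutants. As deposited, the mean of the gene was 17.8 TPM higher in mutants, with 10.2 TPM in the isoforms past the donor, 3.39 TPM in the protein-coding ones and 4.22 TPM in the 3 downstream fragments. This split depended on the scaling. The mean of the protein-coding sum went from 45.5 TPM in controls to 45.1 TPM in mutants after median-ratio scaling, and from 46.1 to 44.9 TPM after protein-coding scaling. The mean of the gene went from 96.3 to 105.9 TPM and from 97.6 to 105.3 TPM. The isoforms past the donor were apart after median-ratio scaling (33.1 to 36.3 TPM in controls against 38.3 to 43.0 TPM in mutants) and with protein-coding scaling (33.3 to 36.9 TPM against 38.3 to 42.9 TPM).

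As a share, the isoforms past the donor made up 43.1%, 42.6% and 43.1% of those 2 groups in controls and 46.7%, 47.5% and 49.1% in mutants. The means were 42.9% ± 0.26 SD and 47.8% ± 1.19 SD (n = 3 each), with no overlap. Tested as donor use, the log2 ratio of isoforms spliced at a donor to isoforms running at least 8 bases past it, the difference was -0.28 ± 0.13 SE (95% interval -0.60 to 0.03, adjusted p = 0.803). The shares of the groups were thus apart in these libraries, but the interval of the donor-use test included 0. The difference was not called over all donors. This measure was added after the isoform structures and values had been seen.

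**Figure D3:**
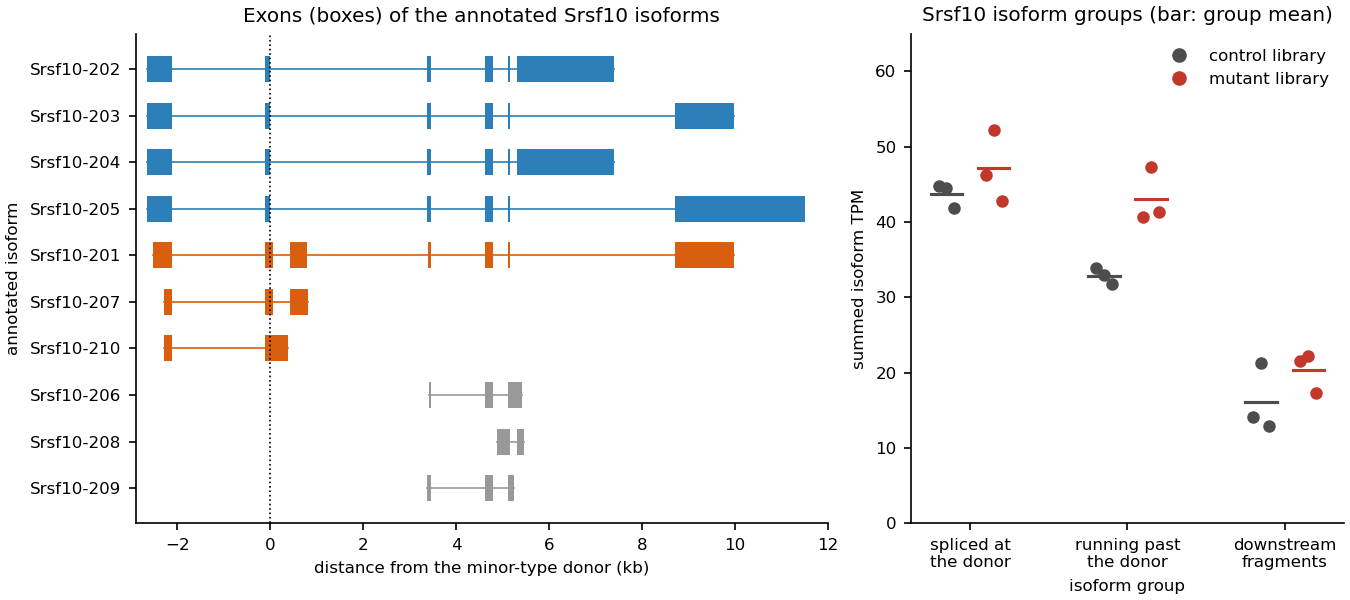
Left, exons of the 10 annotated Srsf10 isoforms (vertical axis) against distance from the minor-type donor in kb (dotted line), in blue where spliced at it, in orange where the exon runs past it and in grey for fragments that lie downstream. Right, summed TPM of these groups in each library with group means; for the isoforms running past the donor, mutants (40.6 to 47.3 TPM) lie above controls (31.7 to 33.9 TPM), and the other groups overlap.

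Among single isoforms of Srsf10 the 2 truncated ones stood out. Srsf10-207, which ends in the extra exon, stood at 17.0, 15.2 and 17.9 TPM in controls and 20.3, 25.1 and 21.0 TPM in mutants (log2 difference 0.38 ± 0.12 SE, adjusted p = 0.433). Srsf10-210, which runs on unspliced, stood at 6.20, 5.26 and 2.42 TPM in controls and 8.85, 7.89 and 7.04 TPM in mutants (0.73 ± 0.28 SE, adjusted p = 0.434), and control 3 moved this most, to 0.41 when left out. Srsf10-201, the long isoform with the extra exon, overlapped (0.16). The most abundant protein-coding isoform, Srsf10-204, stood at 24.1, 24.2 and 24.6 TPM in controls and 24.7, 27.6 and 23.7 TPM in mutants (0.06, turning to -0.05 and -0.08 after the 2 rescalings). Srsf10-202 and Srsf10-203 differed by 0.09 and 0.04 and also turned negative after rescaling, and Srsf10-205 differed by 0.24. The fragments Srsf10-206, Srsf10-208 and Srsf10-209 differed by 0.35, 0.15 and 0.45, with overlapping groups.

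A stricter measure, which needs isoforms that span an intron from end to end, did not show the difference at this donor. Its 6 tested introns of Srsf10 all had overlapping groups, with adjusted p-values of 0.882 to 0.967. For the minor-type intron, chr4:135858410-135861773, the isoforms that splice it made up 79.1% ± 1.43 SD of spanning isoforms in controls and 78.3% ± 1.89 SD in mutants (log2 difference -0.07 ± 0.18, adjusted p = 0.967). In this measure only Srsf10-201 counts as not splicing, since Srsf10-207 and Srsf10-210 end within the intron. The intron from the major-type donor, chr4:135858472-135858841, was spliced in 39.3% ± 1.64 SD against 42.7% ± 1.88 SD (0.21 ± 0.17, adjusted p = 0.882). Its neighbour from the extra exon, chr4:135859202-135861799, mirrors the minor-type intron and differed by 0.07. The pair of introns that start at chr4:135863203 and differ by 1 codon differed by -0.08 and 0.08, and the last tested intron, chr4:135863577-135863728, by -0.17.

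Hnrnpl (ENSMUSG00000015165.16, chr7:28808541-28822266, plus strand) showed the same direction at both ends of its minor-type intron. Hnrnpl-208 runs from the upstream exon into the intron, past the donor at chr7:28814288. It stood at 10.8, 11.7 and 10.9 TPM in controls and 12.1, 15.5 and 17.1 TPM in mutants (log2 difference 0.38 ± 0.14 SE, adjusted p = 0.434). Hnrnpl-207 begins inside the intron and runs through its end at chr7:28815098, and it stood at 8.73, 7.79 and 5.52 TPM in controls and 9.25, 10.6 and 9.78 TPM in mutants (0.40 ± 0.17, adjusted p = 0.442). The 8 isoforms that splice the intron summed to 120.1, 113 and 126 TPM in controls and 117, 129 and 108 TPM in mutants, which overlap. After median-ratio scaling this sum still overlapped, with means of 124.7 TPM in controls and 112.8 TPM in mutants. After protein-coding scaling it was lower in every mutant, narrowly (114.41 to 133.8 TPM in controls against 109.8 to 114.33 TPM in mutants).

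The 2 unspliced isoforms together made up 14.0%, 14.6% and 11.5% of the spliced and unspliced sum in controls and 15.5%, 16.9% and 19.9% in mutants. The means were 13.4% ± 1.66 SD and 17.4% ± 2.26 SD (n = 3 each), with no overlap. Donor use differed by -0.44 ± 0.20 SE (adjusted p = 0.803) and acceptor use by -0.47 ± 0.23 SE (adjusted p = 0.849). Donor use was -0.27 without mutant 3, and acceptor use -0.24 without control 3. Each rests on 1 short retained-intron model, and as levels Hnrnpl-207 and Hnrnpl-208 overlapped between groups after either rescaling. The ratios do not change with scaling.

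**Figure D4:**
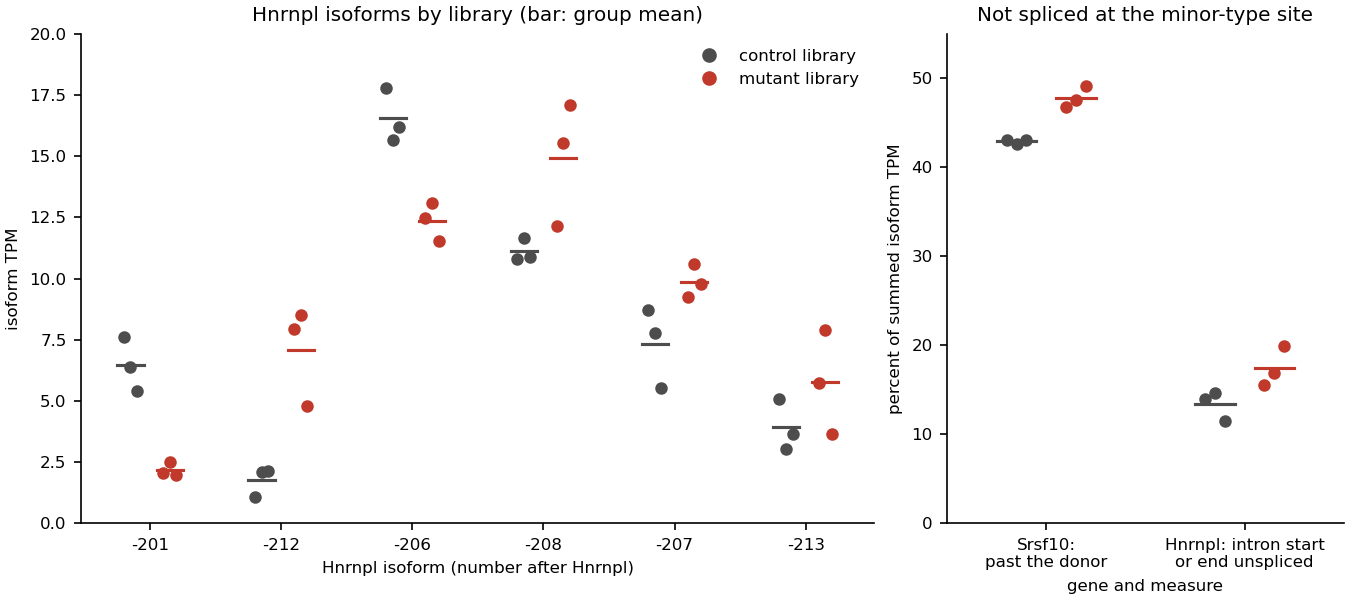
Left, TPM of 6 Hnrnpl isoforms (horizontal axis) in each control (dark) and mutant (red) library, with bars at group means; Hnrnpl-201 and Hnrnpl-206 are lower in every mutant and Hnrnpl-212, Hnrnpl-208 and Hnrnpl-207 higher, while Hnrnpl-213 overlaps. Right, percent of summed isoform TPM running past the Srsf10 donor (42.6% to 43.1% in controls, 46.7% to 49.1% in mutants) or unspliced at the Hnrnpl intron (11.5% to 14.6% and 15.5% to 19.9%).

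The 2 members were set beside the same measure in all genes. Of 98 donors of members tested none was called (6 of 19985 over all genes, 0.03%), 4 had an unadjusted p under 0.05 (background 6.12%), 10 were lower in mutants without overlap (background 5.03%) and 4 higher (background 7.4%). Of 107 acceptors none was called (5 of 17469 over all genes, 0.0286%), 7 were lower without overlap (background 5.2%) and 3 higher (background 6.75%). Over all genes, 125 exact minor-type donors were tested, of which 105 had a lower ratio in mutants and 52 (41.6%) were lower without overlap, against 2 that were higher without overlap. Their median log2 difference was -0.42, with quartiles of -0.74 and -0.15, and that of all 19985 donors was 0.04. The values of Hnrnpl (-0.44) and Srsf10 (-0.28) lay within the quartiles of the minor-type donors. Donors of 1 gene share isoforms, and the minor-type donors include these 2.

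**Figure D5:**
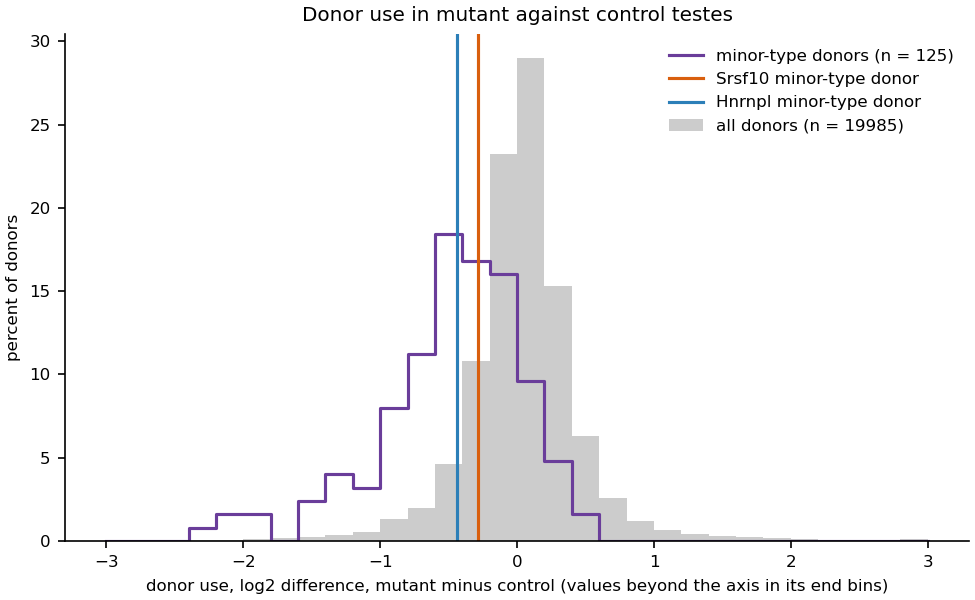
Difference in donor use between mutants and controls (horizontal axis, log2, negative where the donor was used less in mutants) against the percent of donors (vertical axis), for all 19985 donors (grey bars) and 125 minor-type donors (line). The vertical lines mark Srsf10 (-0.28) and Hnrnpl (-0.44), which lie within the quartiles of the minor-type donors (-0.74 and -0.15, median -0.42).

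Downstream in Hnrnpl, the 70-nt cassette exon was included more in every mutant. Isoforms that include it, Hnrnpl-207 and Hnrnpl-213, made up 17.2%, 15.4% and 12.6% of spanning isoforms in controls and 19.9%, 23.5% and 20.3% in mutants. The log2 ratio for skipping differed by -0.61 (adjusted p = 0.861). Hnrnpl-207 is also the isoform with the unspliced end of the minor-type intron, so this value and the acceptor value share it. The NMD isoform Hnrnpl-213 alone overlapped, with 5.08, 3.05 and 3.67 TPM in controls and 5.72, 7.92 and 3.66 TPM in mutants (log2 difference 0.43). This exon was named after its values were seen.

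Over all introns of the members no ratio was called. Of 221 introns tested 111 had a higher and 110 a lower ratio in mutants, 18 had an unadjusted p under 0.05 (background 5.59%), and the groups did not overlap for 15 higher (background 5.55%) and 13 lower ones (background 6.01%), whereas 7 of 44606 introns over all genes were called (0.0157%). The 3 smallest p-values were introns of Hnrnpa3 at chr2:75662757-75663672, chr2:75662926-75663570 and chr2:75662757-75662844. They describe 1 event, the exon skipped in Hnrnpa3-202, whose skipping made up 21.0%, 12.6% and 9.02% in controls and 0.84%, 0% and 3.92% in mutants (log2 difference -3.41 ± 0.83 SE, adjusted p = 0.835). The next 2, chr11:50385191-50385776 and chr11:50384737-50385140, flank an exon of Hnrnph1. The first was spliced in 85.1%, 88.1% and 85.8% of spanning isoforms in controls and 91.6%, 92.2% and 89.9% in mutants (0.72 ± 0.21 SE, adjusted p = 0.861). Introns of 1 gene share isoforms and are not independent.

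Genes that work with these families were taken from 4 lists written from general knowledge, with 82 genes, of which 81 were tested. None was called (0.0278% of all genes), and 4 had an unadjusted p under 0.05, a smaller share than the 16.1% of all genes. With 52 higher and 29 lower, the split was near that of all genes, of which 66.4% were higher, and the median was 0.05 against 0.09. The groups were apart in 6 higher (background 14.5% of genes) and 4 lower genes (background 5.77%), neither share being above its background. Among kinases, the phosphatase and importers of SR proteins, 14 of 16 were higher as deposited, against 66.4% of all genes. Their median of 0.096 was close to the 0.094 of all genes. Their smallest p-values belonged to Srpk2 (76.5 ± 8.93 TPM SD against 97.7 ± 15.5 TPM, log2 difference 0.34, adjusted p = 0.315), Clk1 (0.28) and Tnpo2 (0.24), all with overlapping groups. These stood at 0.20, 0.14 and 0.11 after protein-coding scaling. The groups did not overlap in 2 kinase genes, Prpf4b (0.25) and Clk2 (0.10), both higher and named after their values were seen. Of 23 SR-like factors 15 were higher. Srrm4, a neuronal microexon factor, stood at 0.87, 1.33 and 0.83 TPM in controls and 2.64, 2.95 and 1.39 TPM in mutants (0.70, adjusted p = 0.294), Luc7l2 was lower without overlap (-0.21) and Rbm39 higher without overlap (0.16). After protein-coding scaling Luc7l2 stood at -0.34 and Rbm39 at 0.019, and with a pseudocount of 0.1 Srrm4 stood at 1.09.

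Of 22 hnRNP family genes under other names, 13 were higher and 9 lower. Ptbp2, the polypyrimidine tract protein of germ cells and neurons, stood at 77.6, 72.4 and 84.2 TPM in controls and 63.7, 62.0 and 67.6 TPM in mutants (log2 difference -0.27 ± 0.09 SE, adjusted p = 0.294). Pcbp3 was also lower without overlap (-0.43), and Rbmxl2, a germ-cell hnRNP that acts in meiosis, was lower with overlap (-0.47 ± 0.18, adjusted p = 0.296). The groups also did not overlap for Ptbp1 (0.30) and Pcbp1 (0.19), both higher, and Matr3 (-0.15), which were named after their values were seen. Ptbp1, the widely expressed paralog of Ptbp2, stood at 69.2, 84.3 and 83.9 TPM in controls and 92.5, 114 and 86.9 TPM in mutants. The values of these genes stood in libraries where 21 of 22 meiotic prophase markers were lower and 18 of 20 Sertoli cell markers higher, and the part of these shifts was not tested. Of 20 factors of early intron recognition 10 were higher and 10 lower, with a median of 0.01. Their smallest p-values belonged to Ddx39b (0.19), Tia1 (0.18) and Puf60 (0.12), all overlapping. After protein-coding scaling these stood at 0.051, 0.039 and -0.016.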

How the data were processed

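RNA of 6 mouse testes (3 controls, 3 mutants) was sequenced as stranded total RNA depleted of ribosomal RNA, per the labels' protocols. The submitters' processing notes name HISAT2 and GRCm38, and no source used here names the quantifier or the annotation release. The authors deposited TPM per gene and isoform for each library, without counts. Groups come from the labels.

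Genes and isoforms with a mean of at least 1 TPM were tested with limma 3.58.1 (R 4.3.3; trend, two-sided) on log2(TPM + 1), which understates changes of low genes. Shares (genes of at least 5 TPM, shares of 5% to 95%), nonproductive shares (at least 1%), introns, donors and acceptors (both sums at least 0.5 TPM) were tested without trend as log2 ratios of summed TPM plus 0.1. P-values were Benjamini-Hochberg adjusted over all features, threshold 0.05. An exact permutation test of 3 against 3 cannot go below 0.1. Members and lists were chosen with earlier results of these data known. By rule, printed members were those with an unadjusted p under 0.05 (at most 8 per fit), Srsf10 and the 3 most abundant of each family. The rule also gave at most 5 introns outside Srsf10 and 3 genes per related list. Those named after their values were seen include Srsf6, Hnrnpll, the remaining Hnrnpl isoforms, its cassette exon and both minor-type introns. They also include the members apart after rescaling or for 1 nonproductive kind alone, and Prpf4b, Clk2, Ptbp1, Pcbp1 and Matr3 of the related lists. Isoform structures are those of GENCODE M21, which held every member isoform; 141429 of 142647 isoforms matched. On simulated data the isoform, nonproductive share and donor fits recovered 17.5%, 52% and 0% of features changed by 1 log2 unit and 75.5%, 88.5% and 68.5% of those changed by 2, over 44197, 6491 and 19985 features. The simulated noise was independent for each feature and library, unlike shifts shared by a library. Python 3.11.15, pandas 2.3.3 and matplotlib 3.10.9 were used.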

Additional observations from a re-analysis of the deposited data

How the results depend on the processing

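No count of called members changed: all 8 sets of tests (gene levels, isoform levels, shares, nonproductive shares, introns, donors, acceptors and related genes) gave 0 calls in each of 97 runs, which is also the range with any 1 library left out. The runs used another pseudocount, filter, variance trend, scaling, definition or replicate block. The definitions of donors, acceptors and other noncoding isoforms were chosen after seeing the data. For donors the 0 calls cannot decide on changes of 1 log2 unit or less, of which the fit recovered 0% in simulated data. Replicate numbers did not pair the libraries (same-number correlations -0.07, 0.03 and 0.08), and with the replicate block 0 members were called. Of single values under alternatives 797 kept their direction and side of the threshold and 34 reversed, all of them small.

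Median-ratio and protein-coding scaling gave -0.11 and -0.14 for Srsf11, -0.029 and -0.055 for Hnrnpk, -0.044 and -0.069 for Hnrnpl-202, -0.10 and -0.13 for Hnrnpl-204, -0.013 and -0.036 for Srsf10-202, -0.051 and -0.072 for Srsf10-203, and -0.054 and -0.079 for Srsf10-204, and protein-coding scaling gave -0.016 for Puf60. With 1 library left out, differences ranged from -0.086 to 0.081 for Srsf2 (0.014 without control 2, the highest without mutant 3), from -0.062 to 0.053 for Srsf11 (-0.037 without control 1, the lowest without mutant 2), from -0.028 to 0.19 for Hnrnpk (the lowest without control 1) and from -0.099 to 0.052 for Hnrnpa2b1 (above 0 without control 1, control 2 or mutant 3). Among isoforms the ranges were -0.073 to 0.12 for Hnrnpl-204, -0.0022 to 0.14 for Srsf10-202, -0.072 to 0.17 for Srsf10-203 and -0.0056 to 0.10 for Srsf10-204, each lowest without mutant 2, and -0.10 to 0.37 for Srsf10-208, lowest without control 3. The strict ratio of the Srsf10 minor-type intron ranged from -0.14 to 0.014, above 0 without control 1 or mutant 3, and its mirror intron from -0.014 to 0.14. Donor use ranged over all alternatives from -0.31 to -0.25 for Srsf10 and from -0.57 to -0.27 for Hnrnpl, and acceptor use of Hnrnpl from -0.61 to -0.24. Over all alternatives Srsf10-201 ranged from 0.030 to 0.24, Srsf10-205 from 0.10 to 0.33, Srsf10-207 down to 0.25, Srsf10-209 from 0.20 to 0.83, Hnrnpl-207 down to 0.23, Hnrnpl-208 down to 0.25, Hnrnpl-213 from 0.20 to 0.67 and the share of Hnrnpa3-203 down to 0.50. With a pseudocount of 0.1 Hnrnpa3-202 stood at -3.11. With 3 animals a group and depth unknown, no precision per library can be given.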
